A study of Mus musculus with 6 samples.

Results

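Polr3g encodes one of the subunits of RNA polymerase III, and its mRNA was described together with the mRNAs of the 8 other subunits named Polr3a, Polr3b, Polr3c, Polr3d, Polr3e, Polr3f, Polr3gl and Polr3k. These 9 genes, of the 43383 rows in the deposited table, were taken by their symbols, and each symbol was found in 1 row. They were chosen by the RPKM ratio of Polr3g between layers in these libraries, which was already known. The upper and deep values of all 9 are therefore given as a description. Their results in the layer test of the whole table are also given for description only. RNA-seq was performed on astrocytes of the somatosensory cortex. The mice were males of the Aldh1l1-eGFP genotype at 4 weeks of age, a line in which the astrocyte gene Aldh1l1 drives green fluorescent protein, and the GFP-positive cells were collected by FACS. Upper-layer astrocytes (ULAs) came from tissue of layers II–IV and deep-layer astrocytes (DLAs) from layers V and VI of the same 3 brains, which gave 6 libraries. Both groups carried the same transgene, no treatment is given for either, and by their labels they differ in the dissected layers. Layer I, the meninges and the corpus callosum were discarded, and some tissue at the border of layers IV and V was lost, so astrocytes of those places are not represented. The values are RPKM, which divide the reads of each mRNA by its length and by the mapped reads of the library. This puts genes and libraries on a common scale, but the ratio of ULAs to DLAs still rose with mRNA length. Spearman's rho between ratio and length was 0.210 in brain 1 and 0.368 in brain 2, and positive but lower in brain 3. Comparisons between genes are therefore approximate, and results with a length correction are given at the end.

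RNA polymerase III transcribes short noncoding RNAs such as the tRNAs, the 5S ribosomal RNA and the U6 small nuclear RNA. Polr3a and Polr3b encode the large subunits that form the catalytic centre. Polr3c, Polr3f and either Polr3g or its paralog Polr3gl form a trimer that takes part in the start of transcription, whereas Polr3d and Polr3e form a dimer linked to initiation and termination, and Polr3k encodes a small subunit needed for cleavage of the transcript and termination. Polr3g is known for its high expression in pluripotent and tumor cells, and Polr3gl is the form found in most differentiated tissues.

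The libraries held between 19.7 and 29.6 M reads, as judged by the smallest steps between RPKM values, and the ULAs of each brain were compared with the DLAs of the same brain. The summed level of 8 astrocyte markers was 11160 to 12080 RPKM in ULAs and 10510 to 11310 RPKM in DLAs, and 0 of these 8 genes passed the layer test. RNA of other cell types was also listed. The 8 oligodendrocyte markers summed to 87.0 to 176.5 RPKM in ULAs and 175.6 to 274.3 RPKM in DLAs, and 5 of the 7 tested were higher in DLAs. The 8 neuronal markers summed to 6.95 to 7.38 RPKM in ULAs and 5.02 to 7.60 RPKM in DLAs. Markers of upper-layer neurons summed to 119.8 to 123.1 RPKM in ULAs and 86.6 to 129.8 RPKM in DLAs, most of it Rorb, and those of deep-layer neurons to 3.96 to 7.88 and 4.38 to 9.57 RPKM. For microglia the sum of 6 markers was 12.9 to 13.8 RPKM in ULAs and 8.58 to 11.7 RPKM in DLAs, of which P2ry12 made up the most. Pericyte and smooth muscle markers, 4 in number, gave 15.1 to 21.9 RPKM in ULAs and 11.2 to 17.9 RPKM in DLAs, and 1 of the 2 tested was higher in ULAs. Precursor markers of the oligodendrocyte lineage gave 1.02 to 1.26 RPKM in ULAs and 0.68 to 0.82 RPKM in DLAs, and the 5 endothelial markers 0.42 to 0.75 and 0.28 to 1.59 RPKM. The blood markers summed to 0.81 to 1.07 RPKM in ULAs and 2.74 to 17.0 RPKM in DLAs, and 1 of the 2 tested was higher in DLAs. Of these, Hbb-b1 was listed at 0 in all ULA libraries and at 1.91, 2.34 and 15.17 RPKM in the DLAs. The defining markers Pdgfra, Gpr17, Bcl11b, Tbr1, Aif1, Pecam1, Flt1, Kdr, Acta2 and Kcnj8 were at 0 in at least 1 library. The part of these cells in the levels of the polymerase III subunits was not tested.

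Polr3g mRNA was higher in ULAs than in DLAs in each of the 3 brains. In ULAs its level was 5.62, 5.63 and 5.78 RPKM in brains 1, 2 and 3, and in DLAs it was 1.76, 2.62 and 1.76 RPKM. The ULA values lay close together at 5.68 ± 0.0896 RPKM (mean ± SD, n = 3), the DLA values were spread more widely at 2.05 ± 0.497 RPKM, and the layers did not overlap. The ratio of ULAs to DLAs was 3.19, 2.15 and 3.28 in brains 1, 2 and 3, with a mean of 2.88 ± 0.631. On the log2(RPKM + 1) scale, which understates the change of genes at such low levels, the difference was 1.26, 0.87 and 1.30, with a mean of 1.14 ± 0.24. The lowest of these ratios came from brain 2, in which the DLA value was the highest of the 3. The DLA library of brain 2 was also the shallowest. In sorted cell pools such as these, fewer cells of a type and less RNA per cell cannot be told apart.

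The row of Polr3g is the RefSeq transcript NM_001081176, with 8 exons and 3060 bases of mRNA, at chr13:81812836-81850012 on the minus strand of mm9. The value of the DLAs of brain 1 rested on about 143 reads and that of the ULAs of brain 3 on about 472 reads. The 95% Poisson intervals, which cover counting error only, were 1.48 to 2.07, 2.23 to 3.06 and 1.497 to 2.06 RPKM for the DLAs of brains 1, 2 and 3. For the ULAs they were 5.10 to 6.18, 5.12 to 6.18 and 5.27 to 6.33 RPKM. The intervals of the layers did not overlap in any brain, but Polr3g was chosen by this ratio, so the gap is given as a description. The DLA interval of brain 2 lay above those of brains 1 and 3. Polr3g was a gene of modest level among the 13999 rows with a mean of at least 1 RPKM, of which 29.4% had a lower mean. Among the same rows, 15 had a larger log2 difference toward ULAs.

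The promoter windows of 3 members are shown so that the starts of the paralogs can be read side by side, and the start of Polr3e beside them because it holds a template of the polymerase itself. They are RefSeq sequences on GRCm38.p6, from 250 bases before to 50 bases after the start of the gene, and 7 of the 9 members had one. No measurement of binding or chromatin was made in these cells, and coordinates of this build are not those of the table. In Polr3g (chr13:81710964-81711263, minus strand) the capitals mark the GC box GGGCGG, searched on both strands:
Polr3g: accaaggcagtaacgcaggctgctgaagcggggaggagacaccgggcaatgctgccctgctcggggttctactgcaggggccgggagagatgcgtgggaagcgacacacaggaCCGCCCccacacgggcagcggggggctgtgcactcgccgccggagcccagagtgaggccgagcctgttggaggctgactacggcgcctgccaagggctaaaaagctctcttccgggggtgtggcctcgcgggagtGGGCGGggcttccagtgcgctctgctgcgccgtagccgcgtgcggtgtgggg
In Polr3gl (chr3:96594132-96594431, minus strand) the capitals mark the E-box CACGTG and the CCAAT box, also on both strands:
Polr3gl: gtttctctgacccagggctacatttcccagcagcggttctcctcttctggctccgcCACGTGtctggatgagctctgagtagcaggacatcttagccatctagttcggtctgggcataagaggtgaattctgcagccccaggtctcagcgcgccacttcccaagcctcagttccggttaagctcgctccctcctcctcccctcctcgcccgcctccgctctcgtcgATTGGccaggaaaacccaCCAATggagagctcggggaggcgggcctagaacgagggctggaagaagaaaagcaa
In Polr3e (chr7:120917528-120917827, plus strand) the capitals mark the bases that lie within a leucine tRNA gene, n-TLaag4:
Polr3e: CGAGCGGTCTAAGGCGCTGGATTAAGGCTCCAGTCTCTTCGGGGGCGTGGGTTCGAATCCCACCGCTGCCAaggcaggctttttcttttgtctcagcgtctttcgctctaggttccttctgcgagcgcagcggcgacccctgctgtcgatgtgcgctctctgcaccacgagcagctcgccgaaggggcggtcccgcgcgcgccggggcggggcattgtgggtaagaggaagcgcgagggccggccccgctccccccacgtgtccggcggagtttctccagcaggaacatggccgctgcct

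The window of Polr3g held 2 matches of the GC box and 0 of the CCAAT box and the E-box, and 69.7% of its bases were G or C. The window of Polr3gl held 0 matches of the GC box, 2 of the CCAAT box and 1 of the E-box, and its GC content was 59.3%. Over all 32851 promoter windows, 35.7% held a GC box, 37.4% a CCAAT box, 7.15% this E-box and 13.6% the TATA box TATAAA. Of the 7 members, 3 held a GC box, 2 a CCAAT box, 3 the E-box and 0 the TATA box. A match is a description of the letters, and the spellings of the 4 motifs do not contain one another. The tRNA gene at chr7:120917517-120917598 is 82 bases long, and 71 of these lie in the window of Polr3e. A tRNA gene reached into 10 of the 32851 windows, or 0.0304%, and into 5 of the 21263 windows of protein-coding genes.

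Polr3gl mRNA exceeded Polr3g mRNA by RPKM in every library, and its layers overlapped. Its level in brains 1, 2 and 3 was 11.43, 9.87 and 9.07 RPKM for ULAs and 10.73, 11.35 and 9.89 RPKM for DLAs. The means were 10.1 ± 1.20 RPKM in ULAs and 10.7 ± 0.733 RPKM in DLAs. The log2 difference was 0.08, −0.18 and −0.11 in the 3 brains, so that its sign was not shared. The row is NM_027241, with 8 exons and 1402 bases, at chr3:96381797-96398081 on the minus strand of mm9. An unnamed row on the opposite strand (ENSMUSG00000087610) shares 57 exon bases with it, or 4.07% of the mRNA, and had 11.29 to 12.41 RPKM in ULAs and 13.16 to 17.29 RPKM in DLAs. How strands were counted is not given in the sources used here, so reads in the shared bases cannot be told apart.

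**Figure D1:**
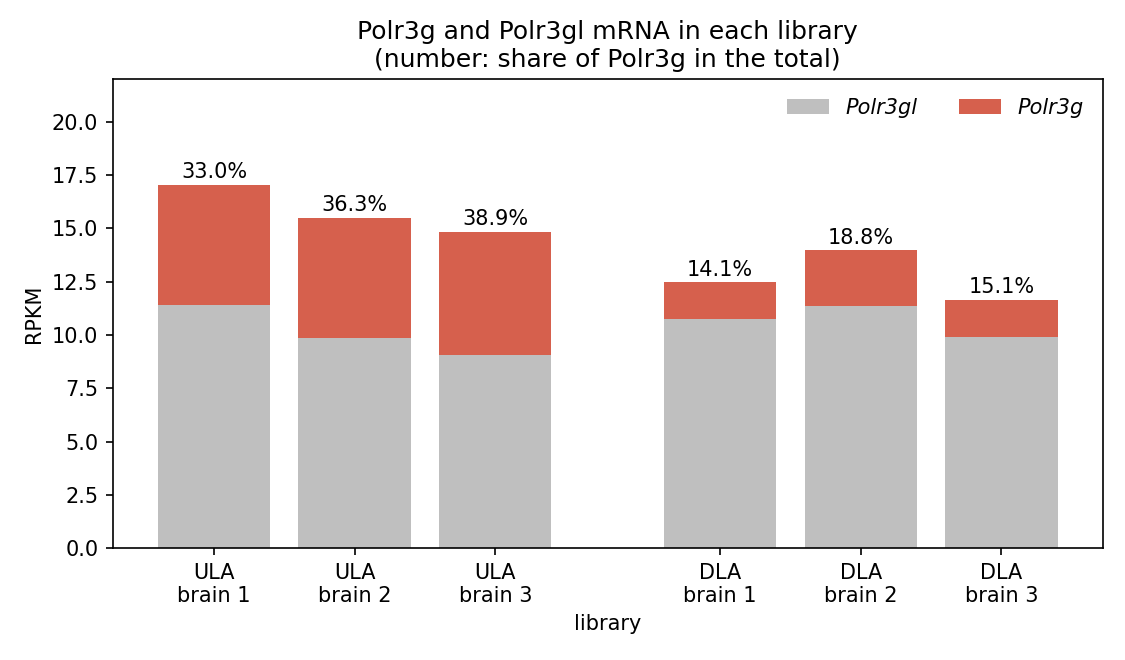
RPKM of Polr3gl (grey) and Polr3g (red) stacked for each library on a linear axis, with the share of Polr3g in their total printed above each bar. The share lies between 33.0% and 38.9% in the 3 ULA libraries and between 14.1% and 18.8% in the 3 DLA libraries.

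Because a polymerase contains either paralog, their levels were also expressed as a share of their total. Polr3g made up 33.0%, 36.3% and 38.9% of the total in the ULAs of brains 1, 2 and 3. In the DLAs it made up 14.1%, 18.8% and 15.1%. The means were 36.1 ± 2.99% and 15.98 ± 2.45% (SD, n = 3), and the layers did not overlap, as is shown in the stacked bars of the paralogs. The total itself was 17.05, 15.50 and 14.85 RPKM in ULAs and 12.49, 13.97 and 11.65 RPKM in DLAs. By RPKM, Polr3gl was thus the more abundant paralog in both layers, and the totals of the layers did not overlap either. In ULAs this order rested on the division by length, since Polr3g had more reads than Polr3gl in each brain. The ULA reads were about 420, 441 and 472 for Polr3g and 392, 355 and 340 for Polr3gl. In DLAs they were about 143, 158 and 159 for Polr3g and 400, 313 and 410 for Polr3gl. Reads of the paralogs were distinguishable by their sequence: of the 3019 words of 36 bases in the Polr3g transcript, 0 occur in Polr3gl, and 0 occur in another gene of the GENCODE annotation. For Polr3gl, 114 of 1392 words (8.19%) occur in other genes, none of them Polr3g.

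The layers of the other trimer subunits overlapped. Polr3c was the most abundant member on average, at 17.62, 19.01 and 17.55 RPKM in ULAs and 19.86, 20.22 and 18.32 RPKM in DLAs. It was lower in ULAs in all 3 brains, with a mean log2 difference of −0.10 ± 0.05. Polr3f was at 4.27, 4.76 and 4.66 RPKM in ULAs and 4.68, 3.05 and 4.27 RPKM in DLAs. Its log2 difference was −0.11, 0.51 and 0.10 in the 3 brains, and the widest of these came from the DLA library of brain 2, the shallowest, in which Polr3f had about 249 reads. Polr3c lies at chr3:96515818-96531362 (minus strand, 15 exons) and Polr3f at chr2:144353481-144367515 (plus strand, 9 exons) of mm9.

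The large catalytic subunits were at 3.44 to 5.02 RPKM, and their layers overlapped. Polr3a was at 4.81, 4.37 and 5.02 RPKM in ULAs and 4.74, 4.58 and 3.64 RPKM in DLAs. Polr3b was at 3.99, 4.32 and 4.16 RPKM in ULAs and 4.01, 4.37 and 3.44 RPKM in DLAs. For both genes the layers differed most in brain 3, with log2 differences of 0.38 for Polr3a and 0.22 for Polr3b, and lay between −0.06 and 0.02 in brains 1 and 2. Polr3a lies at chr14:25267916-25306268 (minus strand, 31 exons) and Polr3b at chr10:84085182-84189923 (plus strand, 28 exons). An unnamed row on the opposite strand (ENSMUSG00000090905), at 0.49 to 1.53 RPKM, shares 102 exon bases with Polr3b, or 2.11% of its mRNA.

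Polr3d, a subunit of the dimer, was the other member whose layers did not overlap, in the direction opposite to that of Polr3g. It was at 16.59, 16.27 and 16.58 RPKM in ULAs and 17.43, 18.30 and 18.48 RPKM in DLAs. The mean log2 difference was −0.13 ± 0.05, a ratio of ULAs to DLAs of 0.913. With 776 to 1178 reads a library, the Poisson intervals of the layers overlapped in each brain, for example 15.5 to 17.7 RPKM in the ULAs and 16.4 to 18.5 RPKM in the DLAs of brain 1. Its partner Polr3e was at 7.32, 6.35 and 6.82 RPKM in ULAs and 8.58, 7.24 and 6.10 RPKM in DLAs, lower in the ULAs of brains 1 and 2 and higher in those of brain 3. Polr3d lies at chr14:70838555-70843278 (minus strand, 9 exons) and Polr3e at chr7:128061258-128090946 (plus strand, 21 exons).

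Polr3k varied more between brains than between layers. Its level was 6.23, 8.64 and 10.61 RPKM in ULAs and 8.19, 9.75 and 11.89 RPKM in DLAs. It was lower in ULAs in all 3 brains, with a mean log2 difference of −0.22 ± 0.11, while the brain means ranged over 0.59 on the same scale. The ranges of the layers overlapped widely. Polr3k lies at chr2:181599065-181605531 (plus strand, 3 exons).

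**Figure D2:**
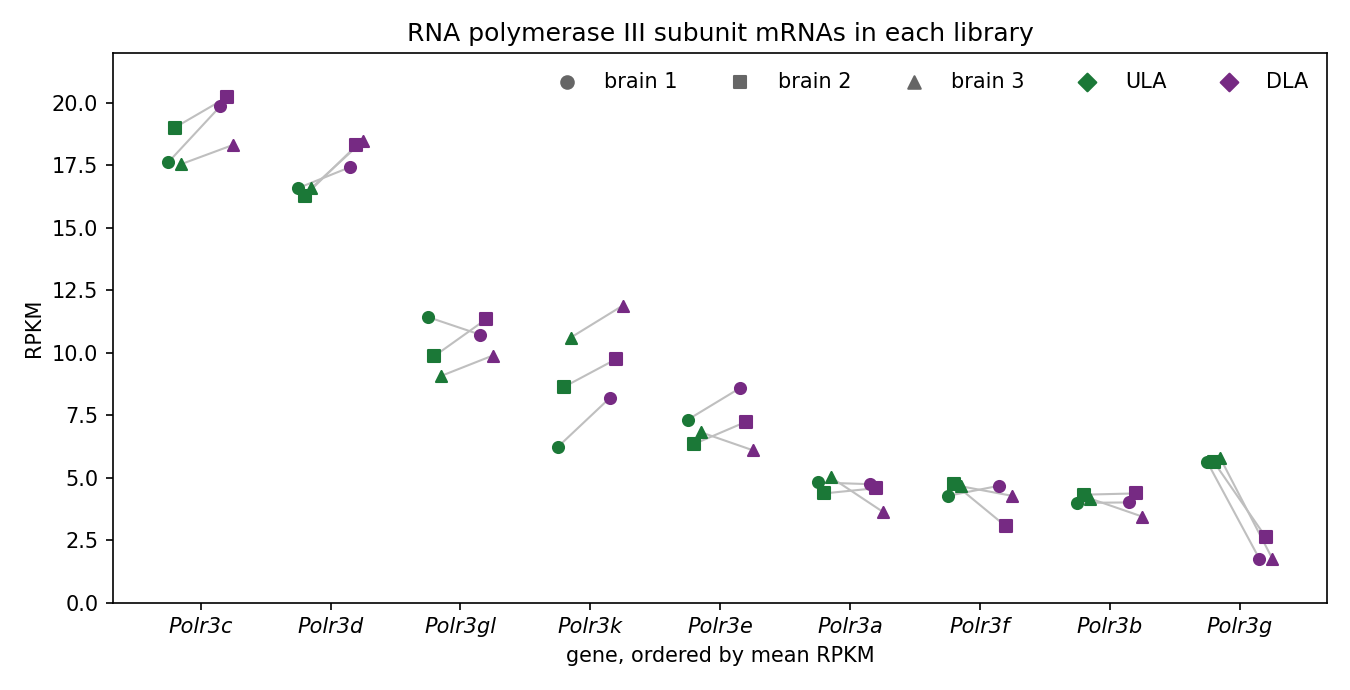
RPKM of the 9 subunit mRNAs in each of the 6 libraries on a linear axis, ULAs in green and DLAs in purple, with a symbol for each brain and a grey line joining the layers of the same brain. Polr3g lies at 5.62 to 5.78 RPKM in ULAs and 1.76 to 2.62 RPKM in DLAs, and the Polr3d layers are apart by less, whereas the ranges of the other 7 overlap.

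In ULAs the order of mean levels was Polr3c, Polr3d, Polr3gl, Polr3k, Polr3e, Polr3g, Polr3a, Polr3f and Polr3b. Neighbours within 1 SD of their difference over brains, or not in the same order in all 3 brains, were Polr3gl and Polr3k, Polr3k and Polr3e, and Polr3a and Polr3f. In DLAs the order was Polr3c, Polr3d, Polr3gl, Polr3k, Polr3e, Polr3a, Polr3f, Polr3b and Polr3g. There, Polr3c and Polr3d, Polr3gl and Polr3k, Polr3k and Polr3e, Polr3a and Polr3f, and Polr3f and Polr3b did not differ beyond that spread. Polr3g was number 6 of the 9 in each ULA library and number 9 in each DLA library. It exceeded Polr3a by 0.22 ± 0.07 (log2 scale) in ULAs and lay below Polr3b by 0.70 ± 0.15 in DLAs.

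The summed level of the 9 mRNAs overlapped between the layers, at 77.9, 79.2 and 80.3 RPKM in ULAs and 80.0, 81.5 and 77.8 RPKM in DLAs. Polr3g made up 7.22%, 7.11% and 7.20% of this sum in ULAs and 2.20%, 3.22% and 2.26% in DLAs. Without Polr3g the sum was 72.3 to 74.5 RPKM in ULAs and 76.0 to 78.9 RPKM in DLAs, so that the layers no longer overlapped and the 8 others were together lower in ULAs. The median log2 difference of the 8 others was −0.07, within a range of −0.22 to 0.17, beside a median of −0.03 over all 13999 rows.

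**Figure D3:**
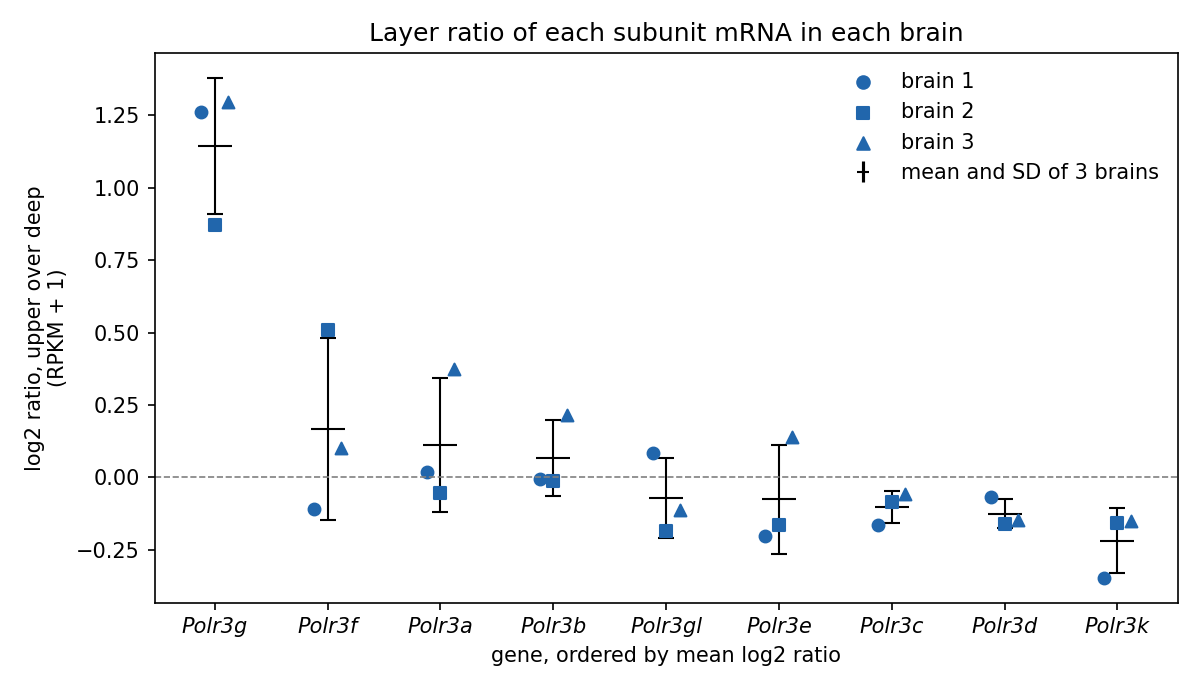
Difference of log2(RPKM + 1) between ULAs and DLAs for each subunit mRNA, with a symbol for each of the 3 brains and black bars for the mean ± SD. Polr3g lies between 0.87 and 1.30, whereas the means of the 8 others lie between −0.22 and 0.17 on either side of the dashed line at 0.

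All 9 members had a mean of at least 1 RPKM and entered the fit of the whole table. In the layer test of limma, with the brain as a term and an adjusted p under 0.05, 1.63% of the 13999 rows passed, and 1 of the 9 members, Polr3g, was among them. Layers that did not overlap were found for 15.9% of rows and for 2 of the 9 members, Polr3g and Polr3d. The same direction in all 3 brains was found for 38.4% of rows and for 4 of the 9 members, 1 of them higher in ULAs (Polr3g) and 3 higher in DLAs (Polr3c, Polr3d and Polr3k). Counted by direction, 15.2% of all rows were higher in ULAs and 23.2% higher in DLAs in all 3 brains. These counts come from the contrast by which the members were chosen and are given for description. Polr3g was not called in the fit without a filter on low values, in which 0 of 27963 rows passed and 1124 were higher in ULAs and 1675 in DLAs at an unadjusted p under 0.05.

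The genes that work with the polymerase were not used in the choice of the members. Their lists were drawn up with earlier results of these data known, and a gene first listed was left out. The layer differences of the listed genes were tested in the same fit, and the counts hold for these lists only. The 12 lists held 78 genes, among them 6 subunits of polymerase I, 8 of polymerase II and 9 transcripts of polymerase III. Of the 78 genes, 73 were in the table and 67 were tested, and 0 passed in either direction (limma, adjusted over all 13999 rows). An unadjusted p under 0.05 was found for 3 genes higher in ULAs (4.48% of those tested) and 10 higher in DLAs (14.9%), beside 5.64% and 10.8% of all 13999 rows. The lowest adjusted p in limma was 0.104, and 53 of the 67 genes differed by less than 0.25 on the log2 scale. Their median log2 difference was −0.10, beside −0.03 over all rows. Layers did not overlap for 14 of the 67 genes (20.9%), beside 15.9% of all rows. Of the 35 with the same direction in all 3 brains, 12 were higher in ULAs (17.9% of the 67) and 23 higher in DLAs (34.3%), beside 15.2% and 23.2% of all rows. Nothing particular to these genes is read from the shares, which were not tested. Without brain 3, 6 of the 67 passed, namely Rb1 and Bc1 higher in ULAs and Snapc5, Maf1, Rpp21 and Polr2d higher in DLAs. In that fit 426 of all 13999 rows were higher in ULAs and 687 in DLAs. Nothing particular to the 6 genes is read from it.

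**Figure D4:**
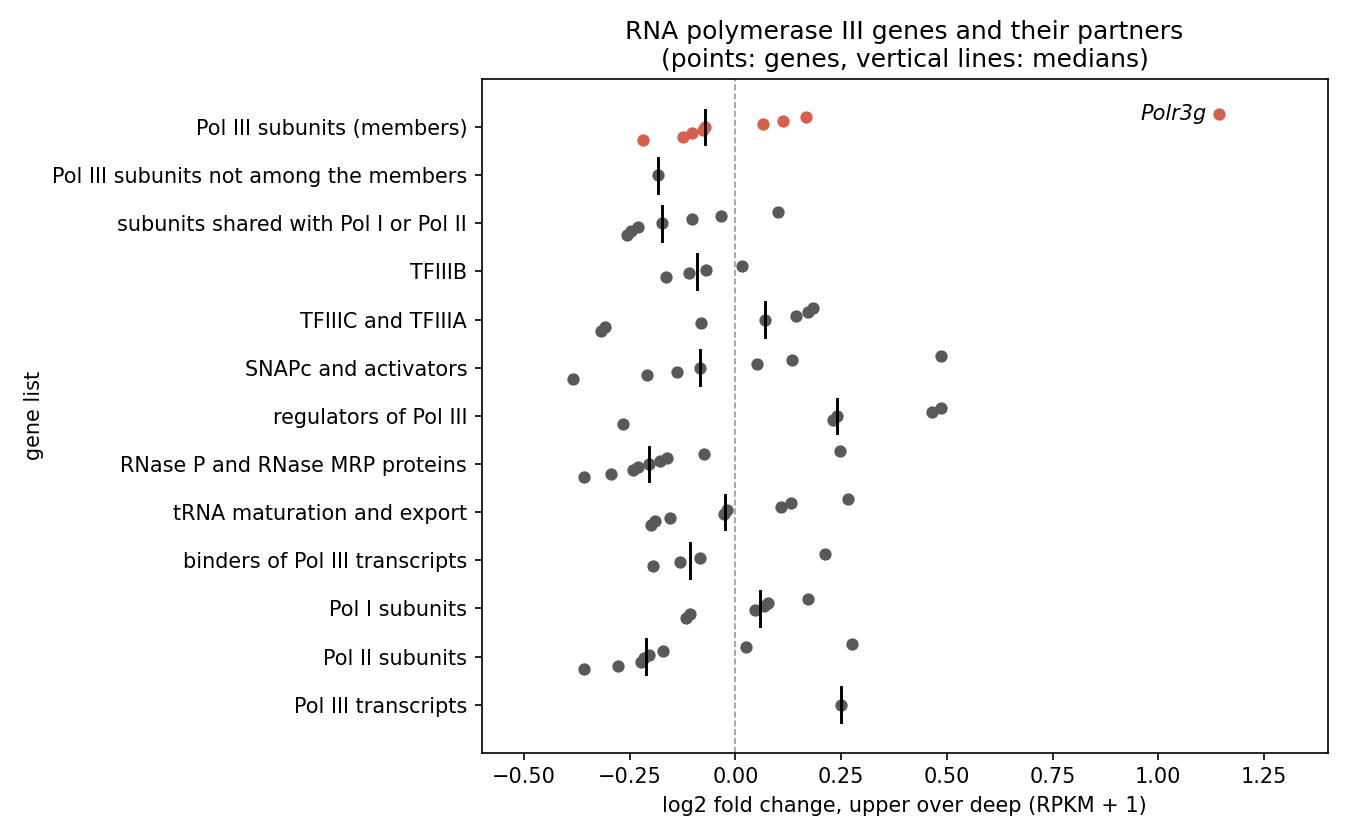
Log2 fold change of ULAs over DLAs for the 9 subunits (red) and for each tested gene of the 12 lists of partner genes (grey), with a vertical line at each list's median. Polr3g stands at 1.14, and each of the other genes lies within 0.486 of 0.

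Crcp, a further subunit of the enzyme, had a log2 difference of −0.18 (adjusted p = 0.51 in limma). The 7 subunits shared with polymerases I or II ranged from −0.26 (Polr2l) to 0.10 (Polr2k), with a median of −0.17. Polymerase I subunits, which make the large ribosomal RNA, ranged from −0.12 (Cd3eap) to 0.17 (Polr1a), and 8 polymerase II subunits, which make mRNA, from −0.36 (Polr2d) to 0.28 (Polr2a).

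The factors that place the polymerase on its genes also did not pass. TFIIIB, which holds the enzyme at the start site, ranged from −0.17 (Tbp, the TATA-binding protein) to 0.02 (Bdp1). TFIIIA and the subunits of TFIIIC, which bind within tRNA and 5S genes, ranged from −0.32 (Gtf3c6) to 0.18 (Gtf3c2). SNAPc and its activators, which serve the U6 type of promoter, reached from −0.38 (Snapc5) to 0.49 (Snapc4). Snapc4 was at 8.84, 7.22 and 7.36 RPKM in ULAs and 6.15, 5.94 and 3.96 RPKM in DLAs, so the layers did not overlap, with an SE of 0.14 and an adjusted p of 0.13 in limma.

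Among the regulators, Maf1, a repressor of the polymerase, had the lowest log2 difference, −0.27, and Myc, an activator, the highest, 0.49 (adjusted p = 0.14 in limma). Myc was at 5.57, 5.82 and 4.35 RPKM in ULAs and 3.05, 4.72 and 2.77 RPKM in DLAs, higher in the ULAs of 3 of 3 brains although the ranges overlapped. Rb1, the retinoblastoma repressor, had the lowest adjusted p of the list in limma, 0.104, with 56.04, 57.40 and 58.44 RPKM in ULAs and 45.36, 32.34 and 47.75 RPKM in DLAs. Mycn and Rbl1 were under 1 RPKM on average and were not tested. The 9 tested proteins of RNase P and RNase MRP, which process tRNAs and ribosomal RNA, ranged from −0.36 (Rpp40) to 0.25 (Pop1), with a median of −0.21. The 8 genes of tRNA maturation and export ranged from −0.20 (Tsen34) to 0.27 (Xpo5), and the 4 binders of polymerase III transcripts from −0.20 (Larp7) to 0.21 (Trove2).

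Of 9 polymerase III transcripts on the list, 4 were in the table and only Bc1, a small RNA of the brain with an adenosine-rich stretch, was tested. It was at 146.6, 177.3 and 115.0 RPKM in ULAs and 120.8, 105.3 and 139.1 RPKM in DLAs, a log2 difference of 0.25 with an SE of 0.16 (adjusted p = 0.47 in limma), and it was higher in the ULAs of brains 1 and 2 and lower in those of brain 3. Rmrp, Rpph1 and Vaultrc5 were under 1 RPKM in every library, at 0 to 0.25, 0 to 0.83 and 0.31 to 0.86 RPKM. The cDNA was primed on poly(A) tails, which most products of the polymerase lack, and tRNAs were not analysed here, so the output of the enzyme was not measured.

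Around Polr3g in the table, the nearest tested rows lie on the opposite strand on either side. Mblac2, whose start is 403 bases from that of Polr3g, was at 8.98, 11.16 and 9.58 RPKM in ULAs and 7.90, 9.96 and 7.43 RPKM in DLAs. It was higher in the ULAs of each brain, but the ranges overlapped and the log2 difference of 0.21, with an SE of 0.12, did not pass (adjusted p = 0.41 in limma). Lysmd3, 1946 bases beyond the end of Polr3g, was at 3.16, 2.88 and 3.90 RPKM in ULAs and 4.22, 3.04 and 2.95 RPKM in DLAs, a log2 difference of −0.02 (SE 0.16). No other row with a value above 0 overlaps Polr3g.

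The rows whose pattern over the 6 libraries was most like that of Polr3g were Nptx2, 6530418L21Rik, Sv2a, Art3 and Sema4g, with Pearson's r of 0.991, 0.990, 0.987, 0.986 and 0.986 on the log2(RPKM + 1) scale. The 6 points share brains and layers, so rows clearly higher in ULAs tend to be high on this measure. Rows higher in DLAs tend to be low, with r down to −0.993. For this reason r is given as a description. Nptx2, which encodes a neuronal pentraxin, was at 42.05, 37.31 and 37.87 RPKM in ULAs and 9.33, 11.86 and 9.38 RPKM in DLAs, a larger ratio than that of Polr3g. 6530418L21Rik was at 13.41, 14.58 and 12.72 RPKM in ULAs and 5.10, 6.07 and 4.6 RPKM in DLAs. Art3, an ADP-ribosyltransferase family gene, was at 20.30, 20.22 and 18.56 RPKM in ULAs and 8.56, 9.40 and 7.20 RPKM in DLAs. As in Polr3g, the highest DLA value of all 5 rows came from brain 2, a likeness that choosing rows by r over the same 6 libraries favours. Sv2a, a synaptic vesicle protein gene, and Sema4g, a semaphorin gene, were at lower levels, 1.98 to 2.30 against 0.92 to 1.16 RPKM and 1.85 to 1.98 against 1.42 to 1.61 RPKM.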

How the data were processed

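RNA-seq libraries of ULAs and DLAs (3 brains, 6 libraries) were made with the SMART-Seq v4 and Nextera XT kits and read from 1 end for 36 bases. The deposited table gives RPKM, computed by the authors, for each row. The submitters' processing notes name mm9, bcl2fastq 1.8.4 and CASAVA 1.8.2, and the aligner and counter are not given in the sources used here. The depth was 24.4, 25.6 and 26.7 M reads for the ULAs and 26.6, 19.7 and 29.6 M reads for the DLAs of brains 1, 2 and 3. It was inferred from the smallest steps between values of rows no longer than 500 bases, of which 99.9% to 100.0% came out as whole reads (at most 80.3% at the next best step). Read numbers and their exact Poisson intervals give precision only.

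Rows with a mean of at least 1 RPKM (13999 of 43383) were transformed to log2(RPKM + 1) and compared by limma 3.58.1 (R 4.3.3; eBayes after lmFit, prior variance following intensity, 2-sided, Benjamini-Hochberg adjustment over all rows, threshold 0.05), with brain and layer as terms. The replicate number was taken as the brain, since the study lists its values by brain, and deviations from the layer means went together for equal numbers (r of 0.42, 0.33 and 0.34 over genes) and not for unequal ones (r of −0.20 to −0.16). Tables and figures used Python 3.11.15 with pandas 2.3.3, numpy 2.4.6, scipy 1.17.1 and matplotlib 3.10.9.

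The members and all gene lists were chosen with earlier results of these data known. A gene first listed among the partners was left out of the lists and is not reported here. Named are all 9 members, the partner genes with the highest and lowest log2 fold change of each list, the 5 rows most like Polr3g, rows that overlap a member and the nearest tested rows of Polr3g. Rb1, the marker genes and the partner genes called without brain 3 were named after their values were seen. Promoters were RefSeq sequences, and shared words of 36 bases were counted in GENCODE transcripts. Alternatives tried were leaving the brain out of the model, no filter (every row above 0) or a mean of at least 5 RPKM, a pseudocount of 0.1, quantile normalization or median centring, a length correction (loess, span 0.5), limma with no trend, and each brain omitted in turn.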

Additional observations from a re-analysis of the deposited data

How the results depend on the processing

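The number of rows higher in ULAs and in DLAs (100 and 128) depended on the fit. Without the replicate block it was 23 and 18, without a filter 0 and 0, with the length correction and the replicate block 65 and 78, without the intensity trend 65 and 79, and with quantile normalization 138 and 103. When each brain was left out in turn it ranged from 104 to 426 and from 126 to 687, the highest without brain 3. The count of subunits called was 0 in place of 1 without a filter, and 0 of the 5 tested among rows with a mean of at least 5 RPKM, where Polr3g, with a mean of 3.86 RPKM, was not tested. In the other fits it was 1, which is no sign of stability, since the members were chosen on this contrast. Its log2 difference was 1.45 with a pseudocount of 0.1 and 1.07 to 1.28 when 1 brain was left out. Its share of the paralog total was 34.6% to 37.6% in ULAs and 14.6% to 16.9% in DLAs with 1 brain left out. Partner genes called numbered 0 under every alternative except without brain 3 (leaving out each brain gave 0 to 6). For the other 8 subunits, 74 of 77 values under the alternatives moved by less than the spread between brains, and 3 moved by more. Polr3c moved from −0.10 to −0.03 with quantile normalization and to −0.04 with the length correction. Polr3d moved from −0.13 to −0.07 with quantile normalization. Of the 77 values 5 changed sign, those of Polr3a (−0.02) and Polr3b (−0.01) without brain 3, Polr3f (−0.0025) without brain 2, and Polr3b (−0.04) and Polr3gl (0.02) with the length correction. The largest of the 77 values was 0.306 in size. The causes were not tested. With 143 to 159 reads for Polr3g in the DLA libraries, changes smaller than the counting intervals were not detectable at this depth.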
